A study of Mus musculus with 12 samples.

Results

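The transcriptional response of control N2A cells to retinoic acid (RA) is described here across all genes, from 6 of the 12 arrays of the study. N2A is a mouse neuroblastoma line that extends neurites when it is differentiated. The study was designed around the long non-coding RNA Dali, so its cells carried either a scrambled short hairpin RNA (control cells) or a hairpin against Dali (KD cells), both stably transfected. Control cells were measured while proliferating in medium with 10% serum (3 arrays) and after 72 h of differentiation with 20 uM all-trans RA in medium with 2% serum (3 arrays). The control is a single stable line with a non-targeting hairpin vector and hygromycin selection, and this is shared by both control groups. RA, the lower serum and the time in culture changed together, so their effects cannot be told apart. The study's methods call the samples of a group biological replicates, but nothing tells whether they were separate cultures of that line, so the p-values measure the spread between arrays, which may be technical. The 6 KD arrays, in the same 2 states, enter the model for the estimate of the spread and serve as the comparison at the end.

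Within cells RA is sequestered by binding proteins and is degraded by CYP26 enzymes. It acts through nuclear receptors (RARs), which pair with retinoid X receptors on DNA elements built of a pair of hexamers and activate genes such as Hox genes, Meis factors and the CYP26 genes themselves. In neuroblastoma cells RA is best known for slowing proliferation and promoting neuronal differentiation.

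Expression is given as log2 values, on which a difference of 1 is a 2-fold change. The authors had normalised all arrays to the same distribution, so a change in the total RNA of a cell cannot be seen, and values of different probe sets cannot be compared as levels. Correlations between control arrays were 0.9973 to 0.9979 within either group and 0.9934 to 0.9938 between proliferating and RA arrays, and the first principal component of the 6 arrays, with 59.21% of the variance, separated RA from proliferating cells. Of 19938 genes measured by a probe set with a single gene symbol, the more variable 9969 were tested. A gene was called if it passed an adjusted p of 0.05 in limma and changed at least 1.3-fold (0.379 on the log2 scale). Errors of log2 changes are standard errors (SE) of that fit. RA cells had 556 genes called higher (5.58% of those tested) and 375 called lower (3.76%), together 931 genes (9.34%). Counts of called genes in the lists described below can be set against these shares, over the members that passed the filter.

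Most changes were small. The median called rise was 0.567 and the median called fall -0.483, whereas 48 rises and 13 falls reached 2-fold. A further 2367 genes passed the test but changed by less than 1.3-fold. Just inside that limit lay Syde1, Cenpo, P4ha2 and Cacna1b (0.379, 0.379, -0.379 and -0.380) and just outside it H2bc14, Zfp646, Gpx1 and Extl1 (0.378, 0.377, -0.378 and -0.378). In 928 of the 931 called genes the 3 RA arrays did not overlap the 3 proliferating arrays, which was also the case in 44.8% of all tested genes. In a bulk sample, more cells of a kind and more RNA per cell of that kind cannot be told apart.

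**Figure D1:**
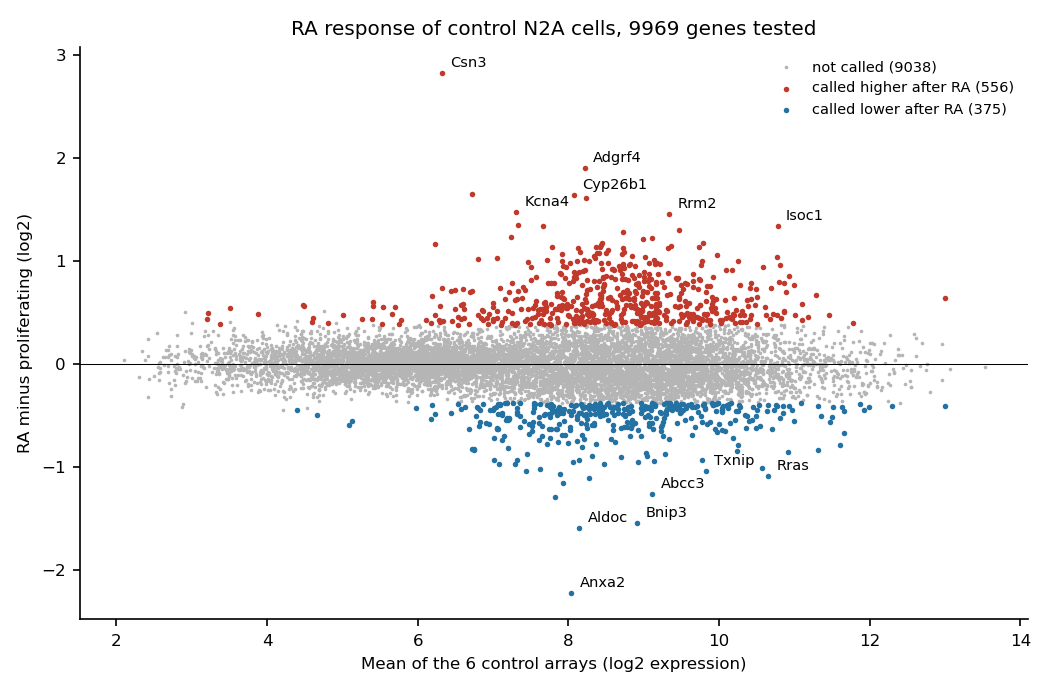
RA minus proliferating cells (log2, vertical axis) against the mean of the 6 control arrays (log2 expression, horizontal axis) for the 9969 genes tested, 1 point per gene. Red points are the 556 genes called higher, blue points the 375 called lower. The called genes spread over the range of expression, and Csn3 (2.82) and Anxa2 (-2.22) lie farthest from 0.

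Genes of the RA pathway were examined first. Among 15 measured genes of retinoid handling, 9 passed the variation filter, 1 was called higher and 1 lower (9.34% of all tested genes were called), and the median change was -0.019, against 0.003 over all genes measured. The gene that rose was Cyp26b1, which encodes an enzyme that degrades RA. It stood at 7.14, 7.15 and 7.48 on the proliferating arrays and at 8.95, 8.78 and 8.95 after RA. All 3 RA arrays lay more than 1 unit above the highest proliferating array, and the change was 1.64 ± 0.10 (SE, n = 3 per group, adjusted p = 2.96e-07 in limma). Stra6, the membrane receptor through which cells take up retinol, moved the other way. Its values were 10.04, 10.00 and 9.92 in proliferating cells and 9.24, 9.49 and 9.41 after RA. The groups did not overlap, and Stra6 fell by 0.61 ± 0.07 (limma adjusted p = 3.25e-05).

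The related enzyme gene Cyp26a1 and the receptor gene Rarb are commonly used as markers of RA action, and neither was called. Cyp26a1 stood at 5.78, 5.80 and 5.82 before and at 5.64, 5.89 and 5.91 after RA. The RA arrays lay on both sides of the proliferating ones, with a difference of 0.01 ± 0.07 (limma adjusted p = 0.909). Rarb stood at 5.78, 6.00 and 5.90 in proliferating cells and at 5.98, 6.20 and 6.14 after RA, so that the groups overlapped (0.21 ± 0.09, limma adjusted p = 0.0847). The values of Cyp26a1 and Rarb lie close to 5.902, the 25th percentile of all probe sets, where a change may not be measurable. The RA-binding protein gene Crabp2 (-0.04) and the receptor gene Rara (0.04) were not called either.

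Both uncalled marker genes carry an RA response motif just before their start in the RefSeq promoter windows of the mouse assembly GRCm38.p6, and among genes of the 3 RA lists with a window only these 2 had a match before the start. The motif searched is 2 copies of the RAR half-site in the same direction, spaced by 1, 2 or 5 bases, on either strand, and 0.6% of all 32851 windows hold it. The stretches are shown because they set the classic RA elements beside genes whose RNA was not called. They lie at chr14:16575488-16575554 on the minus strand for Rarb and at chr19:37697751-37697807 on the plus strand for Cyp26a1, read in the direction of the gene, with the matched motif in capitals and with 36 and 15 bases between the motif and the start:
Rarb: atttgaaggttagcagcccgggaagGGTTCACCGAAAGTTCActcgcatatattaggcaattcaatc
Cyp26a1: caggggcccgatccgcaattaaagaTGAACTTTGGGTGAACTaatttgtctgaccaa
A match of letters is a description of the sequence and not of binding. The window of Cyp26b1 held no match, which says only that these letters are not in it.

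Of 14 receptor and cofactor genes, 7 passed the filter and 2 were called, both higher (median 0.023). Nrip1, a corepressor of nuclear receptors, stood at 8.16, 8.17 and 8.30 before and at 9.03, 9.10 and 8.97 after RA, a rise of 0.83 ± 0.05 (limma adjusted p = 4.63e-07). Nr2f2, the orphan receptor COUP-TFII, was at 8.76 on each of the 3 RA arrays and at 8.14, 8.01 and 8.13 before, a rise of 0.67 ± 0.05. Neither gene had overlapping groups.

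Among 19 RA target homeobox genes, 6 passed the filter and 2 were called, both higher (median 0.020), and neither was a Hox gene. Meis1, a TALE homeobox factor that works with Hox proteins, stood at 8.03, 8.04 and 7.87 in proliferating cells and at 8.93, 8.96 and 8.83 after RA. Its groups lay far apart, with a change of 0.93 ± 0.06 (limma adjusted p = 5.1e-07). Its partner Pbx3 stood at 10.23, 10.14 and 10.17 before and at 10.88, 10.74 and 10.87 after RA (0.65 ± 0.05, limma adjusted p = 1.67e-06). Measured Hox genes lay close to 0, with Hoxa5 at 0.21 and Hoxb6 at 0.05.

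**Figure D2:**
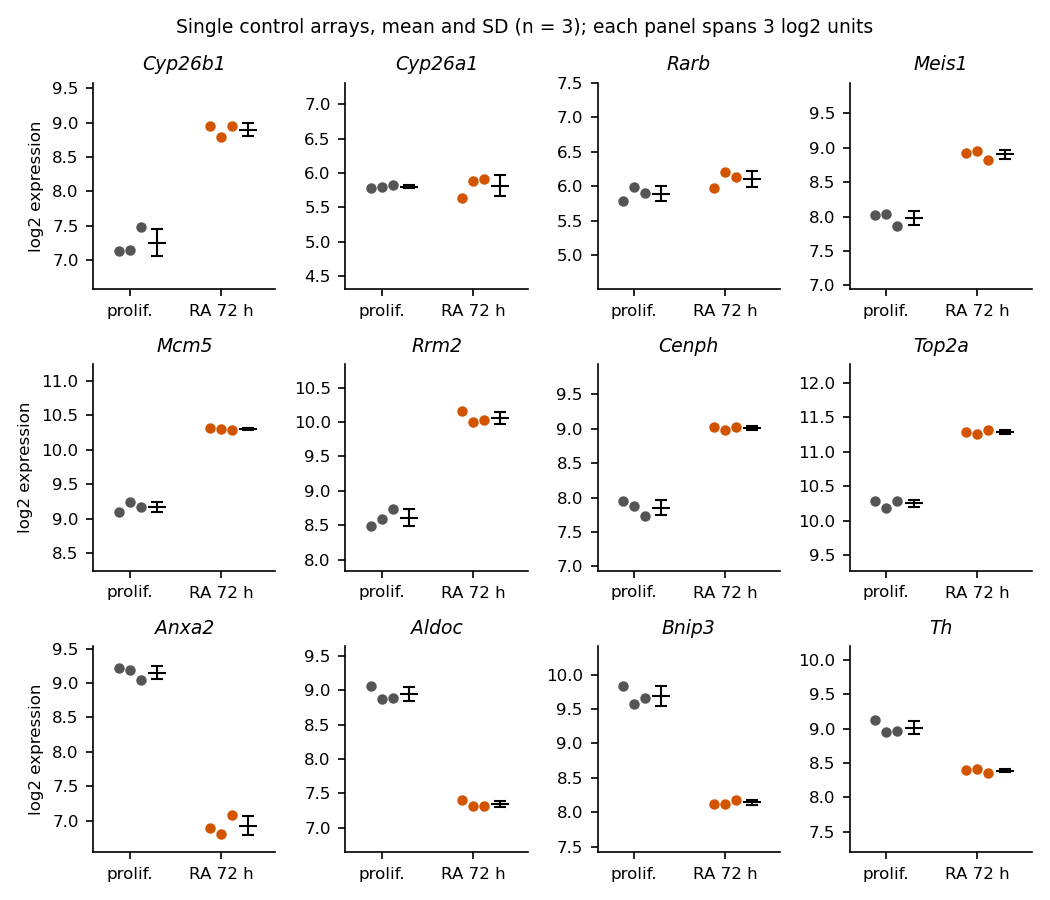
Log2 expression (vertical axis, 3 units in every panel) of 12 genes on each proliferating control array (grey) and each control array after 72 h of RA (orange). The mean and SD of each group (n = 3) are drawn to the right of its points. Cyp26b1, Meis1 and the cell cycle genes Mcm5, Rrm2, Cenph and Top2a lie higher after RA, Anxa2, Aldoc, Bnip3 and Th lie lower, and the groups of Cyp26a1 and Rarb overlap.

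Of the 15 largest rises, 1 was that of a gene of the RA lists, Cyp26b1 (1.64). The largest was that of the kappa casein gene Csn3, which stood at 4.80, 5.16 and 4.76 in proliferating cells and at 7.62, 7.67 and 7.90 after RA. No RA array came within 2 units of a proliferating array, and the change was 2.82 ± 0.12 (limma adjusted p = 6.08e-08). Its proliferating values lie under that 25th percentile (5.902), so the size of the change is uncertain. Adgrf4, an adhesion G protein-coupled receptor gene, rose from 7.12, 7.27 and 7.42 to 9.20, 9.09 and 9.21 (1.90 ± 0.08). The non-classical class I gene H2-M10.1 rose by 1.64 ± 0.17, although the probes of such a gene family may not tell its members apart. The other large rises were those of Ccnjl (1.61), a cyclin-like gene, Kcna4 (1.47), a voltage-gated potassium channel gene, Chst15 (1.34), which encodes a chondroitin sulfate sulfotransferase, Fbxo48 (1.34), Isoc1 (1.33), the phosphatase gene Ptp4a3 (1.3) and Plcl1 (1.23). The 15 largest rises also held Rrm2, Exo1, Mcm10 and Mastl, which belong to the cell cycle.

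Genes of the cell cycle made up 139 of the 556 called rises. The 8 lists from DNA replication to chromosome condensation held 179 measured genes, of which 139 were called higher and 0 lower (median 0.618, against 0.003 over all genes). Of all 19938 measured genes 556 were called higher, which is 5.58% of the tested genes. The lists were drawn up with earlier results of these data known, so these counts are a description and not independent evidence of a direction.

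**Figure D3:**
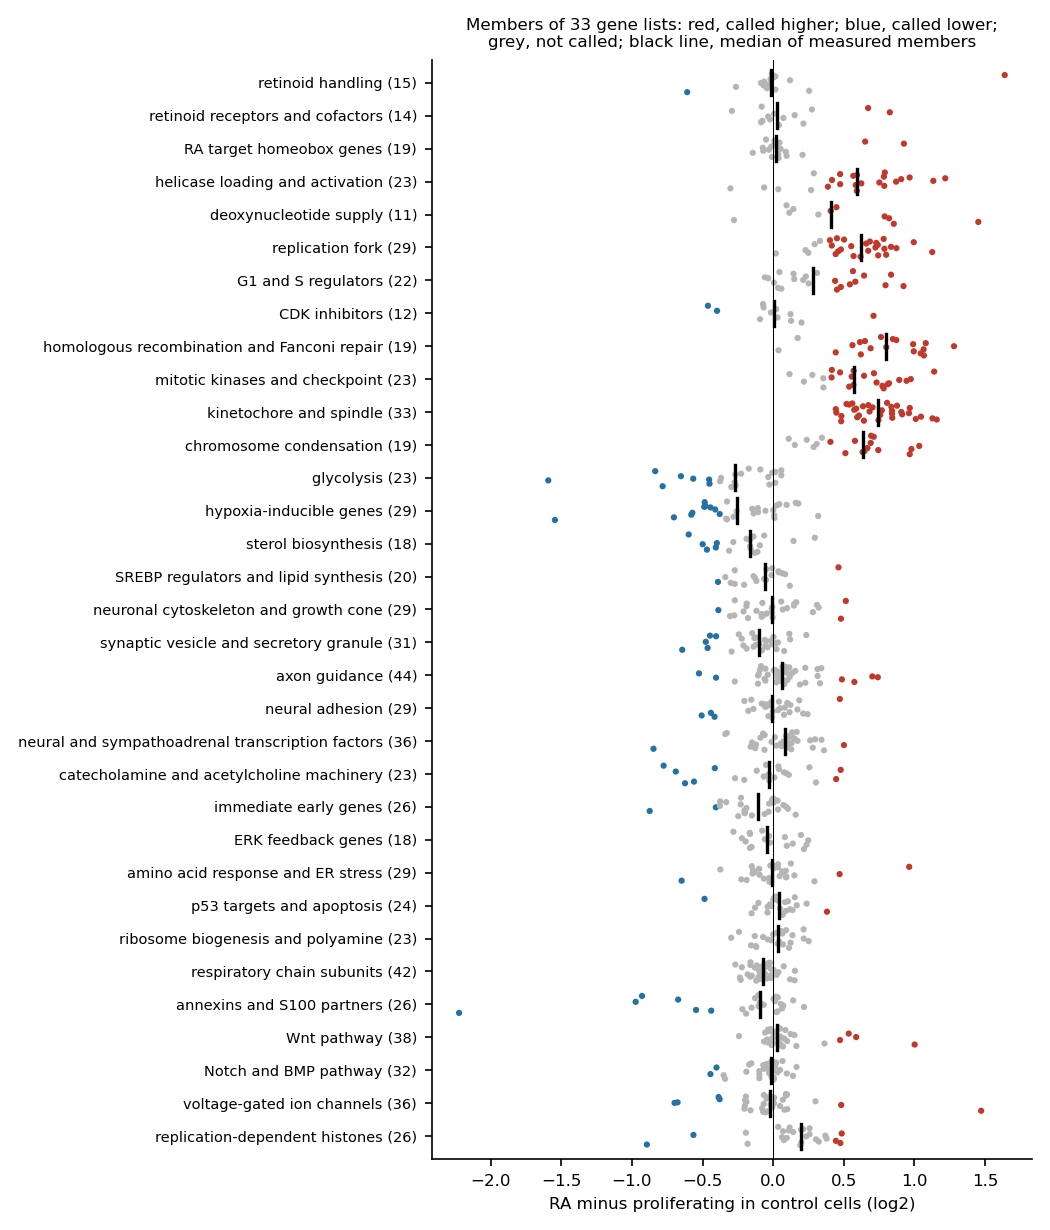
RA minus proliferating control cells (log2, horizontal axis) for the measured members of 33 gene lists (number of members in brackets), 1 point per gene, with the median of each list as a black line. Points of the replication, recombination and mitosis lists lie to the right, with medians from 0.407 to 0.800, and those of glycolysis and hypoxia-inducible genes to the left, with medians of -0.268 and -0.259.

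In helicase loading, which licenses origins of replication, and helicase activation, 21 of 23 measured genes passed the filter and 18 were called higher (median 0.592). Mcm5, a subunit of the replicative helicase, stood at 9.10, 9.24 and 9.17 in proliferating cells and at 10.32, 10.31 and 10.29 after RA. The RA arrays were almost equal and lay 1 unit above the others (1.13 ± 0.06, limma adjusted p = 9.63e-08). The other subunits moved alike, with Mcm2 at 0.62, Mcm3 at 0.75, Mcm4 at 0.87, Mcm6 at 0.42 and Mcm7 at 0.91, and each was called. So were Mcm10 (1.22), Cdc45 (0.97), which travels with the helicase, and the loading factors Cdc6 (0.79), Cdt1 (0.58) and Orc1 (0.59). The origin recognition genes Orc3 (0.04), Orc4 (-0.30) and Orc5 (-0.06) were not called.

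Deoxynucleotide supply had 6 of 11 measured genes called higher (median 0.407, 9 passed the filter). Rrm2, the regulated subunit of ribonucleotide reductase, stood at 8.49, 8.60 and 8.74 before and at 10.16, 9.99 and 10.03 after RA, with no overlap (1.45 ± 0.06, limma adjusted p = 6.08e-08). Its partner Rrm1 (0.85), the thymidine kinase gene Tk1 (0.82) and the thymidylate synthase gene Tyms (0.79) followed. Rrm2b, the subunit used outside S phase, was at -0.28 and was not called.

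At the replication fork 24 of 29 measured genes were called higher (median 0.618, 28 passed the filter). Pole, the catalytic subunit of the leading-strand polymerase, stood at 8.74, 8.73 and 8.80 in proliferating cells and at 9.92, 9.91 and 9.80 after RA (1.13 ± 0.05, limma adjusted p = 8.5e-08). The histone chaperone gene Asf1b (1.00), the clamp loader gene Rfc4 (0.87), the flap endonuclease gene Fen1 (0.83) and the sliding clamp gene Pcna (0.67) were called as well, and no member of the list had a negative change. Among 22 regulators of G1 and S phase, 10 were called higher (median 0.281, 20 passed the filter), among them the cyclin genes Ccne2 (0.92), Ccna2 (0.80) and Ccnd1 (0.45) and the atypical E2F genes E2f8 (0.83) and E2f7 (0.64). The G1 kinase gene Cdk4 (0.25) and the retinoblastoma gene Rb1 (0.14) were not called.

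Homologous recombination and Fanconi repair genes had the highest list median, 0.800, with 17 of 19 measured genes called higher and 18 past the filter. Exo1, an exonuclease of DNA end resection, stood at 8.17, 8.06 and 8.04 before and at 9.40, 9.37 and 9.33 after RA (1.28 ± 0.05, limma adjusted p = 4.33e-08). Fancd2 (1.08), Brca1 (1.07), Rad54l (1.06) and Bard1 (1.04), all of them repair factors, rose by more than 1 unit. Rad51c (0.04) and Msh6 (0.17) were the 2 members not called.

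All 33 measured genes of the kinetochore and spindle passed the filter and were called higher, with changes between 0.443 and 1.158 (median 0.745). Cenph, a protein of the inner kinetochore, stood at 7.95, 7.88 and 7.74 in proliferating cells and at 9.03, 8.98 and 9.03 after RA, so that the groups were more than 1 unit apart (1.16 ± 0.06, limma adjusted p = 1.58e-07). Its neighbours in the complex Cenpk (1.13) and Cenpi (1.01) and the outer kinetochore gene Nuf2 (1.05) were close to it. The smallest changes in this list were those of Kif23 (0.44) and Kif14 (0.45), and averaging its probe sets put Kif14 at 0.224, under the fold limit.

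Of 23 mitotic kinase and checkpoint genes, 22 passed the filter and 18 were called higher (median 0.569). They were led by Fbxo5 (1.14 ± 0.08), an inhibitor of the anaphase-promoting complex, Nek2 (0.97), Mad2l1 (0.94) and Ttk (0.89). Cdk1, the main kinase of mitosis, stood at 10.46, 10.46 and 10.48 before and at 11.29, 11.21 and 11.26 after RA (0.78 ± 0.04, limma adjusted p = 1.23e-07). The 5 members not called were Ccnb2 (0.36), Cdc20 (0.35), Pkmyt1 (0.28), Bub3 (0.22) and Pttg1 (0.12). Chromosome condensation had 13 of 19 genes called higher (median 0.633, all 19 past the filter). The topoisomerase gene Top2a was at 10.28, 10.19 and 10.29 before and at 11.28, 11.26 and 11.32 after RA (1.03 ± 0.06), although the mean of its 2 probe sets changed by 0.369 and was not called. The condensin genes Ncapg2 (0.98) and Smc2 (0.97) followed, and the cohesin genes Smc1a (0.24), Smc3 (0.11) and Rad21 (0.34) were not called.

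Among 12 CDK inhibitors and related brakes of the cycle, 1 was called higher and 2 lower (median 0.002, 8 passed the filter). Cdkn2c, an inhibitor of the G1 kinases, rose by 0.71 ± 0.10 (limma adjusted p = 0.000162). The stress-induced Gadd45b fell by 0.46 ± 0.08, and the antiproliferative gene Btg2 fell by 0.40 ± 0.06. Btg2 dropped under the fold limit without the third proliferating array (-0.366) or the third RA array (-0.359). Cdkn1b (0.20), which encodes p27, was not called. Replication-dependent histone genes, whose RNA is made in S phase, were called in both directions. Of 26 measured, 3 were called higher and 2 lower (median 0.195, 22 passed the filter). H2bc9 (0.48), H1f5 (0.48) and H2ac4 (0.44) were called higher, and H1f2 (-0.89) and H2bc4 (-0.56) lower. With arrays centred on their medians, H2bc14 (0.391) and H2bc3 (0.382) also passed the fold limit, which made 5 higher, as they did without the third proliferating array (0.411 and 0.391) or the third RA array (0.407 and 0.417). Histone genes have near-identical copies, so their values are uncertain.

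Sequences near the starts of these genes were searched for motifs known from cell cycle promoters. E2F factors bind sites of the kind TTTCGCGC, TTTGGCGC or TTTCCCGC, found mainly in genes of G1 and S phase, and the CHR element (TTTGAA or TTCGAA) marks genes of G2 and mitosis, often with a CCAAT box (CCAAT). Both strands of the RefSeq windows from 250 bases before to 50 bases after each start were read. The 3 replication lists had windows for 53 of 63 genes (65 windows), and 27.7% of them held an E2F motif, against 1.8% of all 32851 windows. The 3 mitosis lists had windows for 64 of 75 genes (72 windows), of which 9.7% held an E2F motif, 66.7% a CHR motif and 72.2% a CCAAT box, against 19.2% and 37.4% of all windows for the last 2. The CHR motif was found in 20.0% of the replication windows. The windows of the lists were richer in G and C (medians 61.3% and 59.0%) than all windows (52.7%). These shares are properties of the lists and not of the response, and no share is given for all called genes, because only 78.8% of the rises and 77.6% of the falls had a window.

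The members called higher with the largest change and an E2F match before the start in the replication lists were Mcm5, Mcm7 (0.91), Rfc3 (0.79), a clamp loader gene, and Cdc6. Their matches are shown in the direction of the gene with the motif in capitals, because they show the form of the match in genes of the helicase, its loader and the clamp loader. They lie at chr8:75109335-75109392 (plus strand), chr5:138172016-138172073 (minus), chr5:151651209-151651243 (minus) and chr11:98907988-98908045 (plus) of GRCm38.p6:
Mcm5: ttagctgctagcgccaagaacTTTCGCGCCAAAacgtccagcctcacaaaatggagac
Mcm7: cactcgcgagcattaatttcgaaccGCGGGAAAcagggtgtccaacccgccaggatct
Rfc3: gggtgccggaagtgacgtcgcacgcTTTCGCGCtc
Cdc6: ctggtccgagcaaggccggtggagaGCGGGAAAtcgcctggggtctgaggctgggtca
In Mcm5 a pair of matches on opposite strands overlap.

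In the mitosis lists the corresponding genes with a CHR match were Top2a, Ncapg2, Smc2 and the spindle motor gene Kif11 (0.96), whose product separates the spindle poles. The match nearest the start of each is in capitals, at chr11:99024190-99024237 (minus strand), chr12:116405393-116405435 (plus), chr4:52439051-52439106 (plus) and chr19:37376338-37376381 (plus). In Top2a, Ncapg2 and Kif11 it ends 17, 12 and 13 bases before the start, and in Smc2 139 bases before it:
Top2a: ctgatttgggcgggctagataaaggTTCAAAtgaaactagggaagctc
Ncapg2: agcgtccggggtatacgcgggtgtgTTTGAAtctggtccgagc
Smc2: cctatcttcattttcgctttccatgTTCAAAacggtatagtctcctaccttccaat
Kif11: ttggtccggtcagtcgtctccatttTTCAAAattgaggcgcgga

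**Figure D4:**
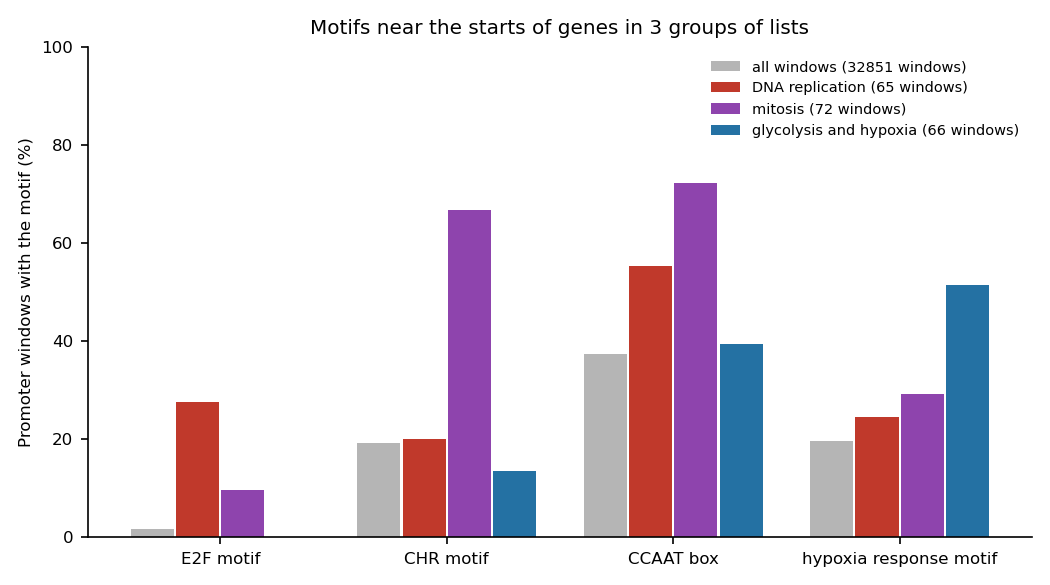
Share of RefSeq promoter windows (vertical axis, percent) that hold each of 4 motifs, for all 32851 windows (grey) and for those of the DNA replication lists (red, 65 windows), the mitosis lists (purple, 72) and the glycolysis and hypoxia lists (blue, 66). The E2F bar is highest for replication (27.7%), the CHR bar for mitosis (66.7%) and the hypoxia response bar for glycolysis and hypoxia (51.5%), and no glycolysis or hypoxia window held an E2F motif.

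The largest fall was that of Anxa2, a calcium-dependent membrane-binding protein, which stood at 9.22, 9.19 and 9.05 in proliferating cells and at 6.89, 6.81 and 7.08 after RA. The groups were nearly 2 units apart, and Anxa2 fell by 2.22 ± 0.10 (limma adjusted p = 6.08e-08). Of 26 measured annexins and S100 partners, 15 passed the filter, 6 were called lower (3.76% of all tested genes were) and 0 higher (median -0.094). Its binding partner S100a10 stood at 11.977, 11.998 and 12.007 before and at 11.50, 11.13 and 11.34 after RA, without overlap (-0.67 ± 0.08, limma adjusted p = 3.65e-05). Ahnak (-0.93), a giant scaffold bound by that complex, and S100a6 (-0.97) were lower too, as were Anxa6 (-0.55) and Anxa5 (-0.44). Anxa6 did not pass the fold limit with the mean of its probe sets (-0.351). Anxa5 was not called without the first proliferating array (adjusted p = 0.0693 in limma) or the first RA array (adjusted p = 0.0622).

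Some genes of glycolysis and of the hypoxia-inducible list were called lower after RA, and none higher. Of 23 measured glycolysis genes, 18 passed the filter (median of the 23 -0.268). Of these 18, 7 were called lower and 0 higher, where 3.76% of all tested genes were called lower. Aldoc, an aldolase, stood at 9.06, 8.88 and 8.88 in proliferating cells and at 7.40, 7.32 and 7.31 after RA, and its groups were far apart (-1.59 ± 0.06, limma adjusted p = 2.66e-08). The lactate exporter gene Slc16a3 (-0.84), the glucose transporter gene Slc2a3 (-0.78), the enolase gene Eno2 (-0.65), Pgk1 (-0.57), Tpi1 (-0.45) and Pfkl (-0.45) were also called. The widely expressed members Aldoa (-0.38), Pkm (-0.27) and Ldha (-0.23) were not, and Hk2 (-0.03) did not pass the filter.

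Of 29 hypoxia-inducible genes, 23 passed the filter, 10 were called lower and 0 higher (median -0.259). Bnip3, a mitochondrial protein of mitophagy, stood at 9.84, 9.57 and 9.66 before and at 8.13, 8.12 and 8.18 after RA (-1.55 ± 0.08, limma adjusted p = 1.5e-07). The carbonic anhydrase gene Car12 (-0.70), the collagen-modifying enzyme genes P4ha1 (-0.58) and Plod2 (-0.57), Pdk1 (-0.49), which restrains the oxidation of pyruvate, and Ero1a (-0.44) were among the others. Vegfa (-0.33) was under the fold limit, and the oxygen sensor gene Egln1 was at 0.32. The messenger RNA of the hypoxia factor Hif1a was at 0.02 and did not pass the filter. All 42 measured subunits of the respiratory chain remained uncalled (25 passed the filter, median -0.073).

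The core of the hypoxia response element, ACGTG on either strand, was found in 51.5% of the 66 windows of these 2 lists, against 19.6% of all windows, and the windows had a median GC content of 63.2%. Of 15 called members with a window, 10 held it, and of 30 uncalled members with a window, 19 did. The called members with the largest change and a match before the start were Bnip3, Slc16a3, P4ha1 and Pgk1. Their stretches, at chr7:138909584-138909638 (minus strand), chr11:120949028-120949066 (plus), chr10:59323255-59323295 (plus) and chrX:106186944-106186998 (plus), show 1 or 2 copies in capitals:
Bnip3: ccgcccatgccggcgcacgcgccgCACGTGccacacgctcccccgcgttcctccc
Slc16a3: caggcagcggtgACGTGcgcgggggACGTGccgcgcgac
P4ha1: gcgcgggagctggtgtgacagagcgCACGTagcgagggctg
Pgk1: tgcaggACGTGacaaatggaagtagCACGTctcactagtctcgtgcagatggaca
In Bnip3 the capitals are a match on each strand that overlap.

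All 18 measured genes of sterol biosynthesis passed the filter, 5 were called lower (3.76% of all tested genes were) and 0 higher (median -0.164). Dhcr7, the last enzyme of one branch of cholesterol synthesis, stood at 10.88, 10.73 and 10.92 before and at 10.27, 10.20 and 10.28 after RA (-0.60 ± 0.08, limma adjusted p = 9.59e-05). Lss (-0.50), Mvd (-0.47), Fdps (-0.41) and Cyp51 (-0.40) were the others. Without the first proliferating array 3 genes of the list were called, since Fdps (-0.368) and Cyp51 (-0.376) then lay under the fold limit. Of 20 SREBP regulators and lipid synthesis genes, 14 passed the filter (median -0.057). Among them 1 was called higher, Mylip (0.46), which marks lipoprotein receptors for degradation, and 1 lower, Scap (-0.39), the escort of SREBP. Scap lost its call with arrays centred on their medians (-0.378) or without the first RA array (-0.365).

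The remaining large falls had no list in common. Among them were Milr1 (-1.29), an immunoglobulin-like receptor gene of mast cells, Abcc3 (-1.26), an efflux transporter gene, Plekha2 (-1.11) and the small GTPase gene Rras (-1.09). Txnip (-1.04), Pqlc3 (-1.04), the protease-activated receptor gene F2rl2 (-1.01) and Padi2 (-0.97) were lower as well. The protease inhibitor genes Ctla2a (-1.16) and Ctla2b (-1.02) are close copies whose probes may share signal. Dlc1 fell by 1.07 ± 0.06, but the probe set of Dlc1 with the highest mean changed by -0.285 and was not called.

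The lists of neuronal genes did not share a direction. Of 29 genes of the neuronal cytoskeleton and growth cone, 22 passed the filter (median of the 29 -0.011). Of these 22, 2 were called higher and 1 lower, where the shares over all tested genes were 5.58% and 3.76%. The progenitor filament gene Nes rose by 0.51 ± 0.07 (limma adjusted p = 0.00011). Dcx, a microtubule protein of migrating neurons, stood at 5.48, 5.43 and 5.34 before and at 5.85, 6.14 and 5.69 after RA (0.48 ± 0.11, limma adjusted p = 0.00443). The values of Dcx were low, and without the second RA array it was at 0.358 and not called. Stmn4, a stathmin, fell by 0.39 ± 0.07, and lost its call without the second proliferating array (-0.348) or the first RA array (-0.37), and with arrays centred on their medians (-0.375). The neuronal tubulin gene Tubb3 (-0.06) and the growth cone gene Gap43 (-0.19) were not called.

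Of 31 genes of synaptic vesicles and secretory granules, 20 passed the filter, 5 were called lower (3.76% of all tested genes were) and 0 higher (median -0.099). Syt5, a calcium sensor of exocytosis, stood at 10.42, 10.47 and 10.21 in proliferating cells and at 9.74, 9.74 and 9.68 after RA, with no overlap (-0.64 ± 0.07, limma adjusted p = 1.44e-05). The vesicle genes Sv2a (-0.48) and Syn2 (-0.46) and the granule genes Vgf (-0.45) and Chgb (-0.40) were the others. Chgb was under the fold limit without the second proliferating array (-0.377) and with the quantile normalisation repeated (-0.356).

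In axon guidance 23 of 44 measured genes passed the filter (median of the 44 0.062). Of these 23, 4 were called higher and 2 lower, where the shares over all tested genes were 5.58% and 3.76%. The semaphorin receptor gene Plxna4 stood at 10.38, 10.28 and 10.29 before and at 11.07, 11.05 and 11.05 after RA (0.74 ± 0.04, limma adjusted p = 2.27e-07). Plxnc1 (0.70), the netrin receptor gene Unc5a (0.57) and the semaphorin co-receptor gene Nrp1 (0.49) rose with it, whereas the semaphorin gene Sema4d (-0.53) and Plxna3 (-0.40) were lower. With the mean of its probe sets Sema4d was at -0.367 and under the fold limit. In neural adhesion 18 of 29 genes passed the filter (median -0.008), and 1 was called higher, Lrrn3 (0.47), and 3 lower, L1cam (-0.51), Dscaml1 (-0.44) and Ncam1 (-0.42), which mediate contacts between neurons. Among 36 voltage-gated ion channel genes (22 past the filter, median -0.021), Kcna4 and Kcnh7 (0.48) were called higher, and the sodium channel genes Scn2a (-0.70) and Scn3a (-0.68) and the calcium channel genes Cacna1g (-0.39) and Cacna1b (-0.38) lower. Both calcium channel genes lost their calls with arrays centred on their medians (-0.374 and -0.366) or without the third RA array (-0.347 and -0.363), and Cacna1b also without the first proliferating array (-0.367).

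Transmitter genes of sympathetic cells were called in both directions. Of 23 genes for catecholamines and acetylcholine, 16 passed the filter, 2 were called higher and 5 lower (median -0.031), and 16 were not called. Over all tested genes the shares were 5.58% higher and 3.76% lower. Th, the rate-limiting enzyme of catecholamine synthesis, stood at 9.12, 8.95 and 8.97 in proliferating cells and at 8.40, 8.41 and 8.36 after RA, with no overlap (-0.62 ± 0.05, limma adjusted p = 2.42e-06). Dbh (-0.56), which makes noradrenaline, the nitric oxide synthase gene Nos1 (-0.78), the acetylcholinesterase gene Ache (-0.69) and the nicotinic receptor gene Chrna7 (-0.41) were lower as well. The receptor gene Chrna3 (0.48) and the vesicular transporter gene Slc18a1 (0.45) were higher. Of 36 neural and sympathoadrenal transcription factors, 22 passed the filter (median of the 36 0.082). Of these 22, 2 were called (9.34% of all tested genes were), Sox4 (0.50) and Gata2. Gata2, a factor of sympathetic development, stood at 10.70, 10.62 and 10.65 before and at 9.78, 9.90 and 9.76 after RA (-0.85 ± 0.05, limma adjusted p = 1.63e-07). Phox2a (0.36) and Isl1 (0.28) were not called.

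The labelled cell type was checked against its markers. The 14 measured sympathoadrenal markers had a mean level of 9.83 to 9.87 on the proliferating and 9.71 to 9.74 on the RA arrays, and 4 of them (Gata2, Th, Dbh and Chgb) were called lower. Markers of glia (12 measured), fibroblasts (13) and immune cells (11) had 0 calls. The mean level of the glial markers was 6.55 to 6.65 on the proliferating and 6.56 to 6.67 on the RA arrays, that of the fibroblast markers 6.53 to 6.58 and 6.50 to 6.61, and that of the immune markers 6.07 to 6.12 and 6.09 to 6.14. Levels of different lists come from different probe sets and are not compared, so the check shows which markers changed and not how strongly one list is expressed beside another. Of 10 endothelial markers the adhesion gene Pecam1 was called lower (-0.63).

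Of 26 immediate early genes, 19 passed the filter, 2 were called lower (3.76% of all tested genes were) and 0 higher (median -0.106). Egr1, which serum induces within minutes, stood at 9.70, 9.76 and 9.71 before and at 8.85, 8.92 and 8.77 after RA (-0.87 ± 0.07, limma adjusted p = 2.2e-06). Ier3 (-0.41) was the other, and it was under the fold limit without the first proliferating array (-0.373) or the third RA array (-0.356). With array weights or the quantile normalisation repeated, Nr4a1 and Klf10 were called lower too, which made 4. Of 18 feedback genes of ERK signalling 0 were called (12 passed the filter, median -0.044). The Wnt list had 16 of 38 genes past the filter (median of the 38 0.026). Of these 16, 4 were called higher (5.58% of all tested genes were) and 0 lower. The Wnt receptor gene Fzd5 stood at 7.77, 7.85 and 7.70 before and at 8.81, 8.79 and 8.72 after RA (1.00 ± 0.05, limma adjusted p = 8.88e-08), followed by the nuclear effector gene Lef1 (0.59), the ligand gene Wnt5a (0.53) and Dkk3 (0.47). The feedback target Axin2 was at 0.03.

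Of 32 Notch and BMP genes, 13 passed the filter (median -0.016) and 2 were called lower, Hey2 (-0.44) and Bmpr1a (-0.40). Hey2 was not called without the third RA array (-0.345), nor Bmpr1a without the first proliferating array (-0.361). In the amino acid and ER stress list 14 of 29 genes passed the filter and 3 were called (median -0.006). The ER chaperone gene Dnajb9 rose by 0.96 ± 0.09 and the cystine transporter gene Slc7a11 by 0.47 ± 0.05, and the stress factor Ddit3 fell by 0.65 ± 0.05. Of 24 p53 targets and apoptosis genes (10 past the filter, median 0.041), Trp53inp1 (0.38) was called higher and Casp8 (-0.49) lower. Trp53inp1 was called neither without the second proliferating array (0.273) nor without the third RA array (0.291). Of 23 ribosome biogenesis genes 0 were called (16 passed the filter, median 0.032).

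The same treatment was applied to KD cells, measured on other arrays. Both sets of calls came from the same fit, with a shared filter and estimate of the spread. Nothing tells whether control and KD cultures were handled separately, so the shared calls are not an independent replication. KD cells had 535 genes called higher (5.37% of those tested) and 456 called lower (4.57%) after RA. The split turned to 475 higher and 565 lower with arrays centred on their medians, and was 576 and 377 with the quantile normalisation repeated. Of the 931 genes called in control cells, 606 were called in the same direction in KD cells, which is 65.1% of the calls in control cells and 61.2% of the 991 in KD cells. A further 2 were called in the opposite direction. Over the 931 genes the change had the same sign in both kinds of cell in 917. The 2 changes correlated at 0.771 over the 9969 tested genes, a description only, since genes are not independent. The cell cycle lists kept their direction in KD cells, with all 33 kinetochore and spindle genes (median 0.634), 22 of 29 replication fork genes (median 0.513) and 17 of 19 recombination genes (median 0.805) called higher.

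The difference between the 2 responses was tested as an interaction, and it was called in 124 genes (1.24%). The control was a single stable line, and the study isolated its knockdown lines as separate drug-resistant clones. An effect of the knockdown and a difference between lines therefore cannot be told apart. Among the 931 genes called in control cells the interaction was called in 36, and among the 323 of them that were not called in KD cells in 20. Being called in control cells alone therefore does not show that the response differed. Isoc1, an isochorismatase domain gene, rose from 10.16, 10.10 and 10.08 to 11.39, 11.49 and 11.46 in control cells, but from 9.28, 9.29 and 9.26 to 9.98, 9.96 and 9.89 in KD cells, and the response of KD cells was smaller by -0.67 ± 0.06 (limma adjusted p = 0.00166). The rises of Adgrf4 (-1.01 ± 0.12), Meis1 (-0.54 ± 0.09) and Pbx3 (-0.44 ± 0.07) were also smaller in KD cells (limma adjusted p = 0.00383, 0.0163 and 0.0163). Adgrf4 started higher in KD cells, with a mean of 8.08 before RA against 7.27 in control cells. After RA its means were 8.97 in KD cells and 9.17 in control cells. Nos1 stood at 8.12, 8.09 and 8.08 in proliferating control cells and at 7.26, 7.38 and 7.32 after RA, whereas in KD cells it was already lower, at 6.834, 6.918 and 7.005, and was at 6.97, 6.97 and 6.80 after RA (difference of the responses 0.77 ± 0.09, limma adjusted p = 0.00239). None of the 8 cell cycle lists held a gene with a called difference.

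**Figure D5:**
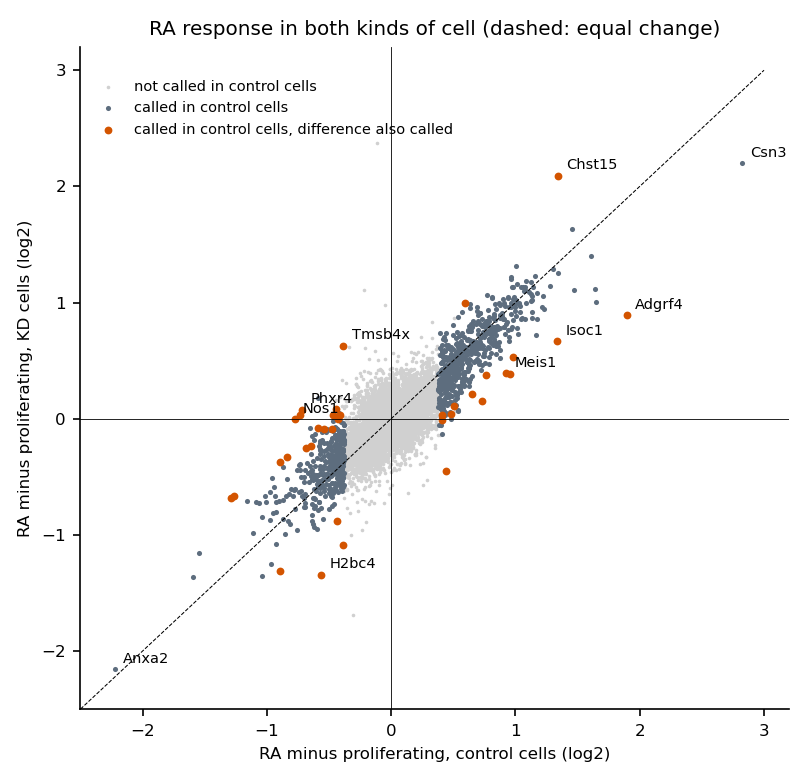
RA minus proliferating cells (log2) in KD cells (vertical axis) against control cells (horizontal axis) for the 9969 tested genes, with the line of equal change dashed. Dark points are genes called in control cells and orange points the 36 of them whose difference between the responses was also called. Most dark points lie near the line, and Adgrf4, Nos1, Phxr4, H2bc4 and Tmsb4x, the 5 with the largest called differences, lie away from it.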

How the data were processed

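RNA of 12 samples (4 groups of 3) was measured on single-colour Affymetrix Mouse Gene 1.0 ST arrays, 1 per sample. The authors deposited log2 expression values per array and probe set. Per the study's methods they had corrected the background by RMA, quantile normalised the arrays and summarised probes per gene. RMA and limma appear in the submitters' processing notes without versions. RMA values tend to understate large changes. Depth does not apply to arrays, and the 3 arrays per group limit the precision. Medians of the 12 arrays lay between 7.146 and 7.209.

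Of 35556 probe sets, 21789 carried 1 symbol in the platform annotation, 1621 several and 12146 were unnamed, and 21698 matched a RefSeq gene identifier (GRCm38.p6). Where a gene had several probe sets (999 of 19938), that with the widest interquartile range over the 12 arrays was kept. The lower 50% by interquartile range was dropped, which is how the study's variance filter was read. The 4 group means were estimated together in limma 3.58.1 (lmFit, contrasts and eBayes, R 4.3.3), with no replicate block, two-sided, with Benjamini-Hochberg adjustment over all genes tested and a 1.3-fold limit. The script was tested on simulated data. Alternatives covered the samples in the fit, filters, probe set choice, normalisation, array weights, the block, the fold limit and leaving out each array.

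The comparison, the lists and the motifs were chosen with earlier results of these data known. Genes were named by rule: the 15 largest called rises and falls without overlap (predicted, small RNA and olfactory or vomeronasal genes left out), up to 4 called members per list and direction with others the text needs, the genes nearest the fold limit, and 5 called genes with the largest called interaction. Promoter windows and sequences are from RefSeq (GRCm38.p6). For motifs, a list was used where at least 80% of its genes had a window. The stretches printed are those of the called members with the largest change and a match before the start, and for the RA motif both matches found. Genes on chr18 were left out of the stretches, but not of the shares of windows.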

Additional observations from a re-analysis of the deposited data

Results flagged for a closer look

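In 15 genes of the report's rule or lists that were called for RA in control cells, the response of KD cells differed from that of control cells by the interaction test in limma. Control and KD cells were separately isolated stable lines, so the knockdown and a difference between lines cannot be told apart here. Values are on the log2 scale, with the change in control cells subtracted from that in KD cells. The difference was negative for Adgrf4 (-1.01), H2bc4 (-0.778), Stmn4 (-0.699), Isoc1 (-0.667), Meis1 (-0.536), Kcnh7 (-0.443), Pbx3 (-0.438) and H1f2 (-0.413). It was positive for Slc16a3 (0.509), Abcc3 (0.598), Milr1 (0.605), Chst15 (0.749), Nos1 (0.77), Phxr4 (0.793) and Tmsb4x (1.01). Among the genes that fell, H2bc4, Stmn4 and H1f2 fell more in KD cells, and Slc16a3, Abcc3 and Milr1 fell less. H2bc4 started higher in KD cells, with a mean of 8.59 before RA against 7.11 in control cells. After RA its means were 7.25 in KD cells and 6.54 in control cells. Chst15 rose more in KD cells (2.09) than in control cells (1.34). Tmsb4x stood at 5.99, 5.29 and 5.77 in proliferating KD cells, against a mean of 9.69 in proliferating control cells. Kcnh7 had means of 5.88 before and 5.92 after RA in KD cells. These KD values lie close to or under 5.902, the limit given above for Cyp26a1 and Rarb, where a change may not be measurable. The sizes of the Tmsb4x and Kcnh7 differences are therefore uncertain.

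For 8 of the 15 genes (Adgrf4, H2bc4, Stmn4, Isoc1, Meis1, Pbx3, Abcc3 and Nos1) the difference stayed called whichever of the 12 arrays was left out. Slc16a3 and Phxr4 lost the call in 1 of these 12 fits, without the third RA array of control cells (limma adjusted p = 0.0509 for each). Milr1 lost it in 5 of the 12 fits, Tmsb4x in 8, Chst15 in 9, and Kcnh7 and H1f2 in 10. The fall of Tmsb4x in control cells (-0.39, adjusted p = 0.0491 in limma) was itself lost in 5 alternatives that kept all arrays and the 1.3-fold limit, and in 10 of the 12 fits that left out 1 array, all but those without the first or second proliferating KD array. H2bc4 and H1f2 have near-identical copies.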

How the results depend on the processing

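For the RA response of control cells, no called gene of the lists or the naming rule changed direction in any of 24 alternatives, and of the 254 that were called, 225 kept their call in all alternatives with the 1.3-fold limit. With no fold limit 3298 genes were called (1563 higher, 1735 lower), and with 2-fold 61 (48 and 13). Leaving out 1 array gave 927 to 958 called genes, with 555 to 586 higher and 349 to 399 lower. The split was 591 higher and 338 lower with arrays centred on their medians, and 550 and 387 with quantile normalisation repeated. Among all called genes, Trav14-1, named here after its values were seen, changed sign with the probe set of the highest mean (0.546 to -0.022, adjusted p = 0.916 in limma). In KD cells 3652 genes were called with no fold limit and 54 with 2-fold, and 950 to 1023 with 1 array left out. The difference of the responses was less stable than either. Its 124 genes became 68 with the filter set on control arrays, 206 with no fold limit and 5 with 2-fold, and 41 (without the third RA array of control cells) to 143 (without the first RA array of KD cells) with 1 array left out, and 10 of these 12 fits, all but those without the first RA array of either kind of cell, lowered it by over 1.5 times. Of its calls 39.5% were positive, against 24.7% with arrays centred on their medians and 59.4% with quantile normalisation repeated. The replicate block gave 558 higher and 376 lower genes for RA in control cells, 990 called genes in KD cells and 94 for the difference. Same-numbered control arrays deviated together only weakly (correlations of 0.00696, -0.0439 and 0.114), so the numbers were not taken as pairs. Between control and KD arrays after RA the correlations were 0.185, -0.0251 and 0.13. The third proliferating control array and the third RA array of KD cells correlated at 0.215. Of 66 list counts, 14 moved by over 1.5 times in some alternative, all of them counts of 5 or fewer, and no count of a replication, recombination or mitosis list was among them.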
